A study of Mus musculus with 8 samples.

Results

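Insulin signalling genes were examined in flow-sorted mouse blood monocytes (MCs). The genes were chosen by name as Insr, Igf1r, Irs1, Irs2, Pik3r1, Akt1, Akt2, Foxo1 and Foxo3. Of these 9 genes, 8 were among the 16486 analysed, and Irs1 was not analysed here. Bulk RNA-Seq of 8 libraries was used, with 2 libraries each of CT Ly6Chigh and CT Ly6Clow MCs and 1 library each of T1DM Ly6Chigh, T1DM Ly6Clow, T2DM Ly6Chigh and T2DM Ly6Clow MCs. The CT group was C57/BL6 with no STZ. The T1DM group, the insulin-deficient model, was C57/BL6 treated with streptozotocin (STZ), which destroys the insulin-producing beta cells. STZ was injected i.p. on 5 days at age 8 weeks, each time at 50 mg/kg. The T2DM group was db/db, with a homozygous mutation in the leptin receptor, known for obesity and insulin resistance. All mice were male and on chow per the methods of the study, and blood was collected at age 20 to 22 weeks. MCs were sorted as CD11b+Ly6G- cells with high or low Ly6C, and the RNA of 5 mice per group was pooled, so each library is 1 pool and no spread between mice can be seen. The study describes sequencing in duplicate, so the spread within a CT pair may be technical.

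Insulin and IGF-1 bind 2 related receptor tyrosine kinases, INSR and IGF1R, which phosphorylate the adaptor proteins IRS1 and IRS2. The adaptors recruit PI3K, a lipid kinase whose regulatory subunit p85alpha is made from Pik3r1. Its lipid product brings the kinases AKT1 and AKT2 to the membrane, where they are activated. AKT in turn phosphorylates the FOXO transcription factors, which then leave the nucleus, so that FOXO target genes are read when the pathway is quiet. In myeloid cells the pathway is known to act on survival, glucose uptake and inflammatory responses, and p85 and FOXO factors are also central to B cell and T cell development. These steps are regulated largely by phosphorylation, which RNA-Seq does not measure.

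The values are the log2 expression values that the authors deposited, from -4.05 to 15.64, and come without read counts, so their counting error is unknown. On the linear scale the values of a library summed to between 1020068 and 1090019 in the Ly6Chigh and between 838696 and 878313 in the Ly6Clow libraries. Because the labels do not say whether the values are corrected for gene length, levels were compared within a gene and not between genes. The sort was visible in its own markers. Sums are again on the linear scale. For 7 Ly6Chigh MC genes such as Ly6c2 and Ccr2 they were 5523.5 to 15115.4 in Ly6Chigh and 653.4 to 973.9 in Ly6Clow libraries. In the same order, 8 general monocyte genes such as Lyz2 and Csf1r summed to 37300.5 to 55405.7 and 8252.5 to 9704.3. Most of that sum was Lyz2, with log2 values of 12.52 to 15.64. The median log2 difference of the 8 genes, Ly6Chigh minus Ly6Clow, was 1.0. A list of 10 B cell genes, all of them measured, summed to 111.0 to 185.8 in Ly6Chigh and 2427.5 to 3171.3 in Ly6Clow libraries. Lepr, mutated in T2DM mice, had log2 values of -1.15 and -0.12 (CT), -0.83 (T1DM) and -2.01 (T2DM) in Ly6Chigh MCs, and 0.74 and 4.23 (CT), 2.39 (T1DM) and 2.23 (T2DM) in Ly6Clow MCs. The db mutation is known to act on splicing, so this gene-level value does not check the genotype. The CT pools were run on a NextSeq 500 machine and both diabetic models on a HiSeq 4000. Against CT, the machine therefore cannot be told apart from diabetes, while T2DM against T1DM stays within 1 kind of machine.

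In the mm10 assembly (GRCm38) with GENCODE M21 annotation, Insr lies on chromosome 8 from 3122061 to 3279617 and Irs2 on the same chromosome from 10984681 to 11008458. Pik3r1 spans 101680563 to 101768217 of chromosome 13, Akt1 112653821 to 112674884 of chromosome 12, and Foxo3 42181841 to 42276755 of chromosome 10, and all 5 of these genes are on the minus strand. Igf1r and Akt2 are on the plus strand of chromosome 7, from 67952827 to 68233668 and from 27591552 to 27640826, and Foxo1 is on the plus strand of chromosome 3 from 52268336 to 52353221. All 8 are protein-coding. Exons of Foxo1 overlap those of the antisense gene Gm20402 by 674 bases, and exons of Irs2 overlap 9530052E02Rik on the other strand by 162 bases. The sources used here do not say that strand was used, so reads of these stretches cannot be told apart from the antisense RNA. Akt2 shares 13.3% of its 31-base sequences with other genes, mostly the pseudogene Akt2-ps, whose own log2 values were listed at -2.51 to 0.19. Foxo1 shares 8.0%, and the other 6 genes share 2.13% or less.

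Promoters (250 bases before to 50 after a start, RefSeq, GRCm38.p6) are shown for 4 genes whose level set the subsets apart, with Foxo1 and Pik3r1 on the Ly6Clow side and Foxo3 and Akt1 on the Ly6Chigh side. Capitals mark the Sp1 box GGGCGG and the FOXO core GTAAACA, each searched on both strands.
Foxo1 promoter, chr3:52268087-52268386, plus strand: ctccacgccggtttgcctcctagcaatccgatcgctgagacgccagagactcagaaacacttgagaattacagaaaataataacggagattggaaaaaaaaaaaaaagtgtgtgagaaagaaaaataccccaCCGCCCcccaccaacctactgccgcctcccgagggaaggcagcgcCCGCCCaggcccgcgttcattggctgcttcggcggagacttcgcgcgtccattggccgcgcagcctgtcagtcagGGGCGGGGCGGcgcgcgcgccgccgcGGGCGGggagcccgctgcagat
Pik3r1 promoter, chr13:101768168-101768467, minus strand: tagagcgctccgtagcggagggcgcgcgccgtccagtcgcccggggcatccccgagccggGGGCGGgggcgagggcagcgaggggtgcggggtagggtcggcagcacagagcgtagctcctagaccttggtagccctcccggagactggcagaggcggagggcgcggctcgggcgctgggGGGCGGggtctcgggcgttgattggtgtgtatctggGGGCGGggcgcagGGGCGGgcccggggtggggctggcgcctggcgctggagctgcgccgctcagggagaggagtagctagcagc
Foxo3 promoter, chr10:42276646-42276945, minus strand: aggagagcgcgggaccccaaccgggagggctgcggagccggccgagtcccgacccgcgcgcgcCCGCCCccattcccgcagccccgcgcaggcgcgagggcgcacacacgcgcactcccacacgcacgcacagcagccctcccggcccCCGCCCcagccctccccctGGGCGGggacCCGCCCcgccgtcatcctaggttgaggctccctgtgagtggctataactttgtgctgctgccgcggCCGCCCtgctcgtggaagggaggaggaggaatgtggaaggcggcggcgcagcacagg
Akt1 promoter, chr12:112674835-112675134, minus strand: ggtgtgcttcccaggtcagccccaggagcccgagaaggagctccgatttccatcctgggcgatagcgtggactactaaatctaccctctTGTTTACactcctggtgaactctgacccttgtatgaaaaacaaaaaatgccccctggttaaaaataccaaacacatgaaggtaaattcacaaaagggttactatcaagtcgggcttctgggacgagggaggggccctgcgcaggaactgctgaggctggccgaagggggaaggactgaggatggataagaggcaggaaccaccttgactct

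The Foxo1 and Foxo3 promoters each held 5 Sp1 boxes, overlapping ones counted, and the Pik3r1 promoter shown held 4. Of 32851 promoters of this length, 35.7% held at least 1. GC content was 61.3% in Foxo1, 75.7% in Pik3r1 and 75.0% in Foxo3, against a median of 52.7% over all promoters. The Akt1 promoter shown had a GC content of 52.3% and 0 Sp1 boxes. Akt1 has another promoter listed, not shown, with a GC content of 79.7% and 5 Sp1 boxes. Pik3r1 also has another, not shown, with a GC content of 43.7% and 0 Sp1 boxes. The FOXO core, in 3.65% of all promoters, was found in 1 of the 13 promoters listed for 8 of the 9 genes named (Insr has no entry in the table used), the Akt1 promoter shown here. GC-rich promoters with Sp1 boxes were thus found on both the Ly6Clow and the Ly6Chigh side, and so were promoters without an Sp1 box. A match of letters is a description of the sequence only.

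Of the 8 genes, 6 differed between the subsets as deposited, 3 of them (Insr, Pik3r1 and Foxo1) under each of the scalings tried, and none of the 8 passed the test between the diabetic models. Pik3r1 and Foxo1 were about 2-fold higher in Ly6Clow MCs, while Insr, Akt1, Akt2 and Foxo3 were 1.35- to 1.88-fold higher in Ly6Chigh MCs. Igf1r and Irs2 overlapped between the subsets. The direction was therefore mixed along the pathway, with the receptor and both AKT kinases on one side and the p85alpha subunit and 1 of the 2 FOXO factors on the other. The limits for a call were those of the study, an adjusted p below 0.01 together with a log2FC beyond 1 in either direction, here from limma with Benjamini-Hochberg adjustment over all 16486 genes. For genes that moved by less than 2-fold, the adjusted p-value is given without the fold limit.

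**Figure D1:**
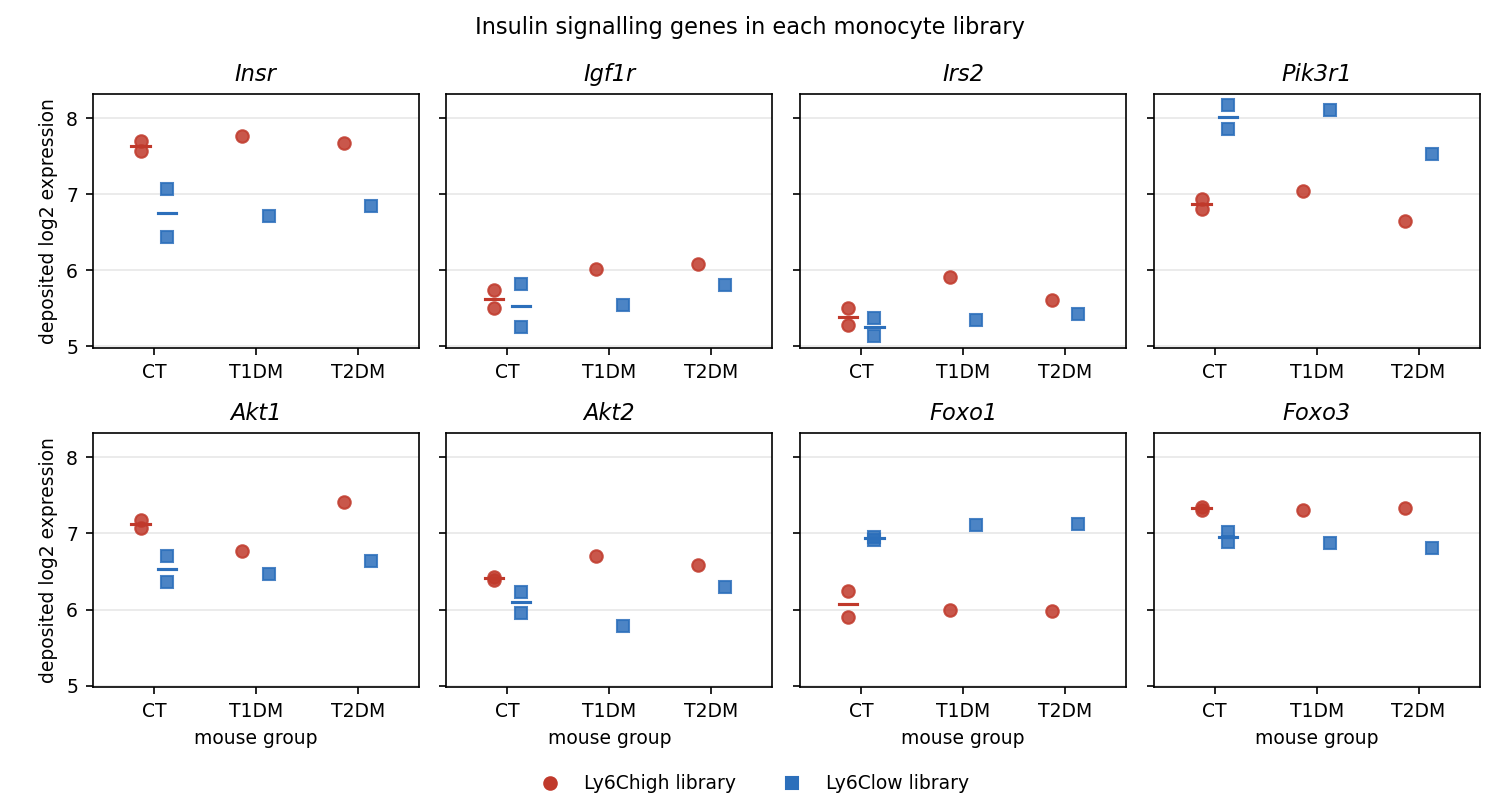
Deposited log2 expression (y axis) of the 8 insulin signalling genes in CT, T1DM and T2DM mice (x axis), with 1 point per library, circles for Ly6Chigh and squares for Ly6Clow MCs, and a bar at the mean of the 2 CT libraries. Pik3r1 and Foxo1 are higher in each of the 4 Ly6Clow libraries, and Insr, Akt1, Akt2 and Foxo3 in each of the 4 Ly6Chigh libraries.

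Insr encodes the insulin receptor. Its log2 values were 7.70 and 7.57 (CT), 7.77 (T1DM) and 7.67 (T2DM) in Ly6Chigh MCs, and 7.07 and 6.43 (CT), 6.71 (T1DM) and 6.85 (T2DM) in Ly6Clow MCs. The lowest Ly6Chigh library lay above the highest Ly6Clow library in all mice, and the spread among the Ly6Clow libraries came mainly from the CT pair. Over the 8 libraries, with mouse group as a covariate, Insr was higher in Ly6Chigh MCs by a log2FC of 0.91 (SE 0.14, adjusted p = 0.00116, limma), a fold of 1.88 with a 95% interval of 1.51 to 2.34. In CT MCs alone the log2FC was 0.88 (SE 0.25) with an adjusted p of 0.0937 in limma, so the 2 against 2 libraries did not pass either limit. In T1DM and T2DM MCs the difference was 1.06 and 0.82, with 1 library on each side and no test.

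Igf1r encodes the IGF-1 receptor, which can also pair with the insulin receptor into hybrids. Values were 5.74 and 5.51 (CT), 6.02 (T1DM) and 6.08 (T2DM) in Ly6Chigh MCs, and 5.25 and 5.82 (CT), 5.54 (T1DM) and 5.81 (T2DM) in Ly6Clow MCs. The subsets overlapped, and both diabetic Ly6Chigh libraries lay above the CT Ly6Chigh libraries. The log2FC between the subsets was 0.23 (SE 0.15, adjusted p = 0.282, limma), with a 95% interval of -0.12 to 0.58. It was -0.07 when libraries were scaled to equal sums, so no direction is given for Igf1r.

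Irs2 encodes the adaptor IRS2. Its values were 5.28 and 5.50 (CT), 5.91 (T1DM) and 5.61 (T2DM) in Ly6Chigh MCs, and 5.13 and 5.37 (CT), 5.35 (T1DM) and 5.43 (T2DM) in Ly6Clow MCs. The T1DM Ly6Chigh library was the highest of the 8, and the other 7 lay between 5.13 and 5.61. The subset difference was 0.25 (SE 0.13, adjusted p = 0.184, limma), with an interval of -0.05 to 0.56, and it turned to -0.05 under equal library sums.

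Pik3r1 encodes the p85alpha regulatory subunit, which holds the PI3K catalytic subunit in check and docks it to phosphorylated IRS proteins. Its values were 6.80 and 6.93 (CT), 7.04 (T1DM) and 6.65 (T2DM) in Ly6Chigh MCs, and 8.17 and 7.85 (CT), 8.11 (T1DM) and 7.53 (T2DM) in Ly6Clow MCs. No Ly6Chigh library reached the lowest Ly6Clow library, that of T2DM mice. Pik3r1 was the only 1 of the 8 genes called, with a log2FC of -1.06 (SE 0.10, adjusted p = 9.37e-05, limma), 2.09-fold higher in Ly6Clow MCs with an interval of 1.77 to 2.45. Without CT Ly6Clow replicate 1 the log2FC was -0.98 and the fold limit was missed, at an adjusted p of 0.000432 in limma. In CT MCs alone it was -1.15 (SE 0.14, adjusted p = 0.0188, limma), and -1.06 in T1DM and -0.88 in T2DM MCs.

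Akt1 and Akt2 encode the kinases that act below PI3K. AKT2 is best known for insulin-driven glucose uptake and AKT1 for growth and survival. Akt1 had values of 7.18 and 7.07 (CT), 6.77 (T1DM) and 7.41 (T2DM) in Ly6Chigh MCs, and 6.70 and 6.36 (CT), 6.47 (T1DM) and 6.64 (T2DM) in Ly6Clow MCs. The T1DM Ly6Chigh library came close to the higher CT Ly6Clow library without overlapping it. Akt1 was higher in Ly6Chigh MCs by 0.57 (SE 0.12, adjusted p = 0.0058, limma), a fold of 1.48 with an interval of 1.23 to 1.78. Akt2 had values of 6.39 and 6.43 (CT), 6.70 (T1DM) and 6.58 (T2DM) in Ly6Chigh MCs, and 5.96 and 6.23 (CT), 5.79 (T1DM) and 6.30 (T2DM) in Ly6Clow MCs. The Akt2 values of the subsets were separated by less than the distance between the CT Ly6Clow libraries. Its log2FC was 0.45 (SE 0.13, adjusted p = 0.0313, limma), a fold of 1.37 with an interval of 1.11 to 1.69. That p depended on single libraries, since it was at or above 0.05 in 5 of the 8 fits without 1 library, those without either CT Ly6Chigh library, CT Ly6Clow replicate 1 or either T1DM library, and ran from 0.0284 to 0.106 over the 8, with a log2FC of 0.30 to 0.53. Without the trend option it was 0.0901 in limma.

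Foxo1 and Foxo3 encode the FOXO factors that AKT keeps out of the nucleus. Foxo1 values were 6.25 and 5.90 (CT), 6.00 (T1DM) and 5.98 (T2DM) in Ly6Chigh MCs, and 6.92 and 6.95 (CT), 7.11 (T1DM) and 7.12 (T2DM) in Ly6Clow MCs. The subsets were far apart in each mouse group, with the CT Ly6Chigh pair as the widest spread within a group. Its log2FC was -0.99 (SE 0.11, adjusted p = 0.000239, limma), 1.99-fold higher in Ly6Clow MCs with an interval of 1.66 to 2.38, so it missed the fold limit of the call by 0.01. In CT MCs alone it was -0.86 (SE 0.14, adjusted p = 0.0345, limma). Foxo3 went the other way, with values of 7.31 and 7.35 (CT), 7.31 (T1DM) and 7.34 (T2DM) in Ly6Chigh MCs, and 6.89 and 7.02 (CT), 6.88 (T1DM) and 6.81 (T2DM) in Ly6Clow MCs. The 4 Ly6Chigh libraries lay between 7.31 and 7.35, and none of the Ly6Clow libraries, at 7.02 or lower, reached them. The log2FC of Foxo3 was 0.43 (SE 0.09, adjusted p = 0.00478, limma), a fold of 1.35 with an interval of 1.18 to 1.54.

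By the limits of the study, 1 of 8 genes was called over the 8 libraries, where 12.1% of all genes were called, so the share of the 8 genes was that of the background. That gene was lower in Ly6Chigh MCs, where 6.76% of all genes were called lower. With an adjusted p under 0.05 and no fold limit, 6 of 8 genes passed, against 32.9% of all genes. They were 4 higher and 2 lower in Ly6Chigh MCs, where 17.0% and 16.0% of all genes were. The same 6 genes were those whose Ly6Chigh and Ly6Clow libraries did not overlap, which held for 32.8% of all genes, with 16.4% above and 16.3% below. In CT MCs alone, limma called 0 of 8 genes, where 3.52% of all genes were called, while 3 of 8 (Pik3r1, Foxo1 and Foxo3) had an adjusted p under 0.05, against 20.5%, and 5 of 8 an unadjusted p under 0.05, against 37.7%. Without the trend option of limma, 1 of 8 (Pik3r1, 0.0467) had an adjusted p under 0.05, where 13.1% of all genes had. With the replicate number as a block, 0 of 8 had one, where 8.52% of all genes had. Fits without 1 CT library leave a subset with 1 library and are too weak to decide whether the 3 genes rest on single libraries. The log2FC of these genes then lay between -1.31 and -0.99 (Pik3r1), -1.03 and -0.69 (Foxo1) and 0.31 and 0.44 (Foxo3). Within a mouse group, the subset difference passed 1 in size for 1 of 8 genes in CT (25.0% of all genes), 3 of 8 in T1DM (27.9%) and 1 of 8 in T2DM mice (29.1%). Pik3r1 passed it in CT and T1DM, Foxo1 in both diabetic models and Insr in T1DM mice.

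The sizes on the Ly6Chigh side depended on the scaling. The median log2FC of all genes was -0.08 as deposited, 0.04 under quantile normalization and -0.38 with equal library sums. With equal sums, Akt1 had a log2FC of 0.27 (adjusted p = 0.088), Akt2 of 0.15 (adjusted p = 0.406) and Foxo3 of 0.13 (adjusted p = 0.251) in limma, and under quantile normalization Akt2 and Foxo3 had adjusted p-values of 0.158 and 0.139. Insr kept an adjusted p under 0.01 with equal sums (0.61) and under quantile normalization (0.67), and so did Pik3r1 (-1.36 and -1.30) and Foxo1 (-1.29 and -1.18). Relative to the median of all genes, Akt1, Akt2 and Foxo3 lay 0.65, 0.53 and 0.51 higher in Ly6Chigh MCs as deposited, and 0.34, 0.25 and 0.16 higher under quantile normalization. Equal sums shift all genes and their median alike, so the values as deposited cannot change there and are not checked by it.

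**Figure D2:**
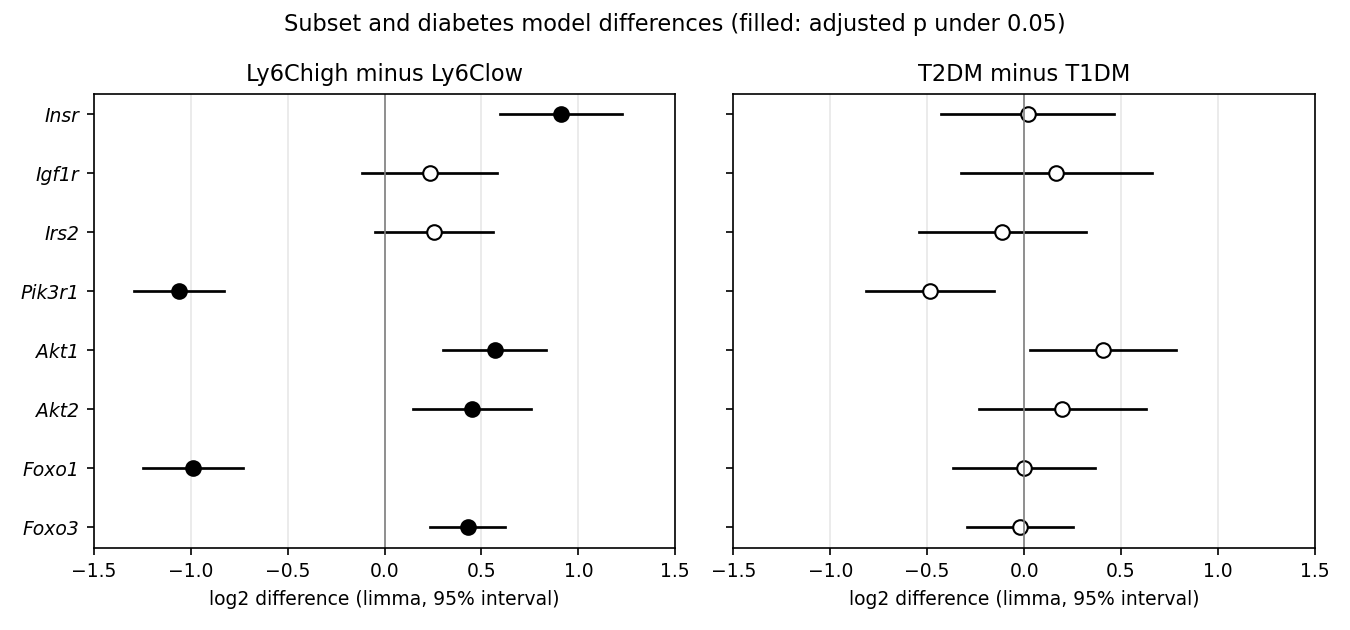
Log2 differences (x axis) of the 8 genes (y axis) from limma fits over the 8 libraries, with 95% intervals as lines and filled points where the adjusted p is under 0.05. On the left, Ly6Chigh minus Ly6Clow sets Pik3r1 and Foxo1 apart from Insr, Akt1, Akt2 and Foxo3, and on the right T2DM minus T1DM stays between -0.48 and 0.41 with no filled point.

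A difference between 2 genes of the same library does not depend on a single scaling factor per library, though quantile normalization can alter it. Foxo1 minus Foxo3 was -1.06 and -1.45 (CT), -1.32 (T1DM) and -1.35 (T2DM) in Ly6Chigh MCs, and 0.03 and -0.07 (CT), 0.23 (T1DM) and 0.31 (T2DM) in Ly6Clow MCs. The balance of the FOXO pair thus lay 1.42 further to the Foxo1 side in Ly6Clow MCs on average, with no overlap between the subsets, and 1.37 further under quantile normalization. Akt1 minus Akt2 averaged 0.59 in Ly6Chigh and 0.47 in Ly6Clow MCs, with overlapping libraries and the lowest value, 0.08, in T1DM Ly6Chigh MCs. Insr minus Igf1r averaged 1.84 in Ly6Chigh and 1.16 in Ly6Clow MCs and overlapped through CT Ly6Clow replicate 1, at 1.82. That shift between the subsets was 0.68 as deposited and 0.57 under quantile normalization. These pairs were chosen after their values were seen and were not tested. Since gene length may enter the values, the sign within a library carries no meaning, and only the shift between subsets does.

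**Figure D3:**
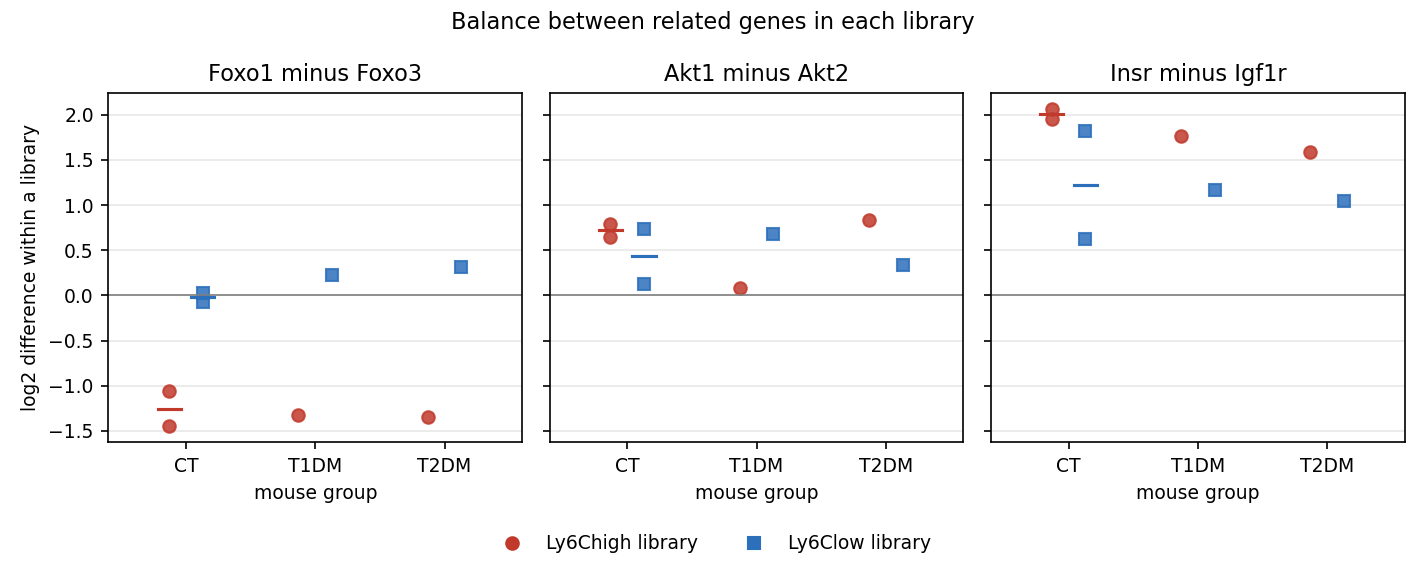
Log2 difference between 2 related genes of the same library (y axis) by mouse group (x axis), with 1 point per library, circles for Ly6Chigh and squares for Ly6Clow MCs, and a bar at the CT mean. Foxo1 minus Foxo3 lies at -1.06 or lower in the Ly6Chigh and at -0.07 or higher in the Ly6Clow libraries, whereas the other 2 pairs overlap.

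Genes of other blood cells differed with the subset. All 10 B cell genes were lower in Ly6Chigh MCs, with a median log2FC of -4.53, and so were 10 of 10 T cell genes (median -1.03) and 7 of 7 NK cell genes (median -2.84). On the linear scale the T cell list summed to 24.8 to 44.6 in Ly6Chigh and 64.5 to 85.1 in Ly6Clow libraries, and the NK cell list to 22.6 to 97.9 and 129.9 to 761.7. No gene of these lists was below a log2 value of 0 in all libraries. Foxo1 and Pik3r1 are known to be strongly expressed in lymphocytes, and the part of lymphocyte RNA in their Ly6Clow level was not tested. In these bulk libraries, fewer cells of a type and less RNA per cell cannot be told apart. The lists of platelet and erythroid genes overlapped between the subsets, at 189.9 to 719.3 and 222.1 to 776.2 for platelet genes and 4911.2 to 11431.3 and 4739.1 to 9576.3 for erythroid genes in Ly6Chigh and Ly6Clow libraries. For neutrophil genes, 5 of 8 were analysed, with sums of 10.4 to 143.7 and 5.8 to 44.0. Dendritic cell genes, with 5 of 6 analysed, summed to 59.3 to 78.9 and 79.6 to 124.9, and eosinophil and basophil genes, with 3 of 5, to 1.5 to 3.4 and 1.9 to 16.3. A list of 8 Ly6Clow MC genes such as Nr4a1 and Treml4 summed to 449.6 to 1249.6 in Ly6Chigh and 1933.2 to 2639.1 in Ly6Clow libraries.

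Insulin-deficient and leptin-receptor-deficient diabetes were compared over both subsets, with T2DM minus T1DM fitted in limma beside the subset effect. Each model had 2 libraries, 1 of each subset and each from pooled mice. The spread behind the p-values came from the CT pairs and from how far the subset difference varied between the mouse groups. These p-values therefore do not measure a spread between mice or between pools of a model. By the limits of the study, 0 of 8 genes were called, where 0.588% of all genes were called, and 0 of 8 had an adjusted p under 0.05, where 2.0% of all genes had. At an unadjusted p under 0.05 there were 2 of 8 genes, Pik3r1 and Akt1, where 14.3% of all genes were. Every 95% interval of the 8 genes, for the mean over both subsets, lay between -0.81 and 0.78 on the log2 scale. A 2-fold difference in that mean lies outside all 8 intervals. They do not cover a difference within 1 subset or the spread between pools of mice.

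Pik3r1 had the largest difference, at -0.48 (SE 0.15, adjusted p = 0.166, limma), with T2DM below T1DM by 0.39 in Ly6Chigh and 0.58 in Ly6Clow MCs. As a fold this was 1.40 towards T1DM, with an interval of 1.11 to 1.76 before adjustment over genes. With any 1 library left out, its log2FC lay between -0.61 and -0.36. T2DM Ly6Chigh and T2DM Ly6Clow MCs both lay below the 2 CT libraries of their subset, while T1DM lay above them in Ly6Chigh and between them in Ly6Clow MCs. Akt1 went the other way, at 0.41 (SE 0.17, adjusted p = 0.313, limma), with 0.64 in Ly6Chigh and 0.17 in Ly6Clow MCs. In Ly6Chigh MCs, the T1DM library was below and the T2DM library above both CT libraries, whereas in Ly6Clow MCs both lay between the CT libraries. With any 1 library left out, the log2FC of Akt1 lay between 0.23 and 0.58.

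Foxo1 was nearly equal in the 2 models, with differences of -0.01 in Ly6Chigh and 0.01 in Ly6Clow MCs and an interval of -0.37 to 0.36. Foxo3 differed by 0.03 and -0.07, with an interval of -0.29 to 0.25, the narrowest of the 8. Insr differed by -0.10 and 0.14 and had an interval of -0.43 to 0.47. These intervals allow folds of up to about 1.29, 1.23 and 1.38 in either direction for Foxo1, Foxo3 and Insr. Igf1r was higher in T2DM by 0.06 and 0.27 (interval -0.32 to 0.66). Irs2 differed by -0.31 in Ly6Chigh and 0.08 in Ly6Clow MCs (interval -0.54 to 0.32), and Akt2 by -0.12 and 0.52 (interval -0.23 to 0.63).

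The models differed in the same direction in both subsets for 3 of the 8 genes, with T2DM higher for Akt1 and Igf1r and lower for Pik3r1. Over all genes, T2DM was higher in both subsets for 28.7% and lower in both for 27.9%. Whether the difference between models differed between the subsets was tested with a mean for each of the 6 groups, where the spread comes from the CT pairs and the single diabetic libraries are assumed to vary like them. In limma 0 of 8 genes were called, where 0.0% of all genes were, with 0 of 8 at an unadjusted p under 0.05, where 11.4% of all genes were. The largest such difference was that of Akt2, at -0.64 (SE 0.24, adjusted p = 0.463, limma).

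Marker lists differed with the model as well. NK cell genes summed to 97.9 and 761.7 in T1DM Ly6Chigh and Ly6Clow MCs and to 22.6 and 129.9 in T2DM MCs, and 7 of 7 were lower in T2DM. Platelet genes summed to 719.3 and 776.2 in T1DM and to 189.9 and 222.1 in T2DM MCs, with 6 of 6 lower in T2DM, and 5 of 5 erythroid genes analysed were lower too. In the other direction, 7 of 7 Ly6Chigh MC genes were higher in T2DM, with sums of 5523.5 in T1DM and 15115.4 in T2DM Ly6Chigh MCs. Neutrophil genes summed to 35.8 and 143.7 there, but their log2 values did not move together. S100a8 went from 2.49 in T1DM to 6.90 in T2DM Ly6Chigh MCs, Mpo from 0.74 to 3.83 and Ngp from 2.89 to 3.07. Ltf went down from 2.71 to 0.42 and Retnlg from 3.87 to -1.55. B cell genes were lower in 9 of 10, with a median log2FC of -0.45, and their sum was 185.8 in T1DM and 111.0 in T2DM Ly6Chigh MCs and 2649.3 and 3171.3 in Ly6Clow MCs. The part of these cells in the values of Pik3r1 and Akt1 was not tested.

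Against CT MCs, T1DM and T2DM share the same 4 control libraries. By the limits of the study, limma called 0 of 8 genes in T1DM (0.0% of all genes) and 0 of 8 in T2DM (0.297%). An adjusted p under 0.05 was reached by 0 of 8 genes in T1DM, where 0.0182% of all genes had one, and by 0 of 8 in T2DM, where 0.801% had. At an unadjusted p under 0.05 there were 0 of 8 genes in T1DM (3.34% of all genes) and 1 of 8, Pik3r1, in T2DM (8.94%). Among the receptors, the log2FC of Insr was 0.05 (T1DM) and 0.07 (T2DM), and that of Igf1r 0.20 and 0.37. Irs2 had 0.31 in T1DM (interval -0.06 to 0.68) and 0.20 in T2DM. Pik3r1 had 0.14 in T1DM and -0.35 in T2DM (interval -0.63 to -0.06, adjusted p = 0.407, limma). Akt1 had -0.21 and 0.20, Akt2 had -0.01 and 0.19, Foxo1 had 0.05 and 0.05, and Foxo3 had -0.05 and -0.07 in the same order.

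Within a subset, none of the 8 genes differed by more than 1 between a diabetic library and the CT mean, where 10.1% (T1DM) and 13.8% (T2DM) of all genes did in Ly6Chigh and 8.81% and 10.8% in Ly6Clow MCs. Between the models the same held, where 19.3% of all genes in Ly6Chigh and 15.3% in Ly6Clow MCs passed 1. The largest of these single-library differences were those of Akt1 between T2DM and T1DM Ly6Chigh MCs (0.64), Pik3r1 between T2DM and T1DM Ly6Clow MCs (-0.58) and Irs2 between T1DM and CT Ly6Chigh MCs (0.52). For Irs2, the T1DM library exceeded the mean of the CT pair by more than that pair differed (0.22). None of them has a replicate on the diabetic side.

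Other genes of the pathway were taken from a list of 91 genes in 7 parts, of which 85 were measured. Over the 8 libraries, 6 of 85 were called higher and 11 of 85 lower in Ly6Chigh MCs, where 5.37% and 6.76% of all genes were. These counts depended on the scaling, with 5 higher and 13 lower under quantile normalization and 3 higher and 14 lower with equal library sums. With an adjusted p under 0.05 and no fold limit, 24 were higher and 17 lower as deposited, against 17.0% and 16.0% of all genes, and 11 higher and 27 lower with equal sums. The median log2FC of the list was 0.10, where that of all genes was -0.08. In CT MCs alone, 2 of 85 were called, where 3.52% of all genes were. Both were lower in Ly6Chigh MCs, S1pr1 (log2FC -3.84, adjusted p = 0.00321, limma) and Igf2r (-2.30, adjusted p = 0.00888, limma). Between T2DM and T1DM, 0 of 85 genes were called in limma, where 0.588% of all genes were. An adjusted p under 0.05 was reached by 0 of 85 as well, where 2.0% of all genes had one. At such low shares, counts of 0 say little about the list.

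Among ligands and receptors, 1 of 4 measured genes was called, where 12.1% of all genes were. Igf2r, the receptor that clears IGF-2 and carries lysosomal enzymes, had values of 1.79 to 3.21 in the 4 Ly6Chigh and 4.91 to 6.43 in the 4 Ly6Clow libraries, and a log2FC of -3.01 (SE 0.32, limma). Among adaptors and negative regulators of the receptors, 2 of 16 were called, against the same 12.1% of all genes. Gab1, a docking adaptor for PI3K, was higher in Ly6Chigh MCs (3.12), with 5.14 to 6.46 against 1.46 to 3.06. Enpp1, a membrane pyrophosphatase known to inhibit the insulin receptor, was lower (-2.37). Ptpn1, which encodes the phosphatase that switches off the insulin receptor, was higher in Ly6Chigh MCs by 0.60 with an adjusted p of 0.00114 in limma, on the same side as Insr.

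Of the 11 PI3K subunit genes measured, 1 was called, where 12.1% of all genes were. Pik3r6, a regulatory subunit of the leukocyte enzyme PI3Kgamma, was higher in Ly6Chigh MCs by 2.35, with 5.70 to 6.26 against 3.63 to 3.82. With an adjusted p under 0.05 and no fold limit, 6 were higher and 1 lower as deposited, where 17.0% and 16.0% of all genes were, 3 higher and 1 lower under quantile normalization, and 1 higher and 2 lower with equal library sums. As deposited, the higher ones included the catalytic subunits Pik3cb (0.54), Pik3cd (0.56) and Pik3cg (0.52) and the PI3Kgamma subunit Pik3r5 (0.35). With equal library sums these had 0.24, 0.26, 0.22 and 0.05, with adjusted p-values of 0.112, 0.16, 0.161 and 0.685 in limma. Only Pik3ap1, an adaptor of B cell and myeloid receptors, was lower (-0.92).

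Of 9 genes measured in the part of lipid and AKT phosphatases, PI3K inhibitors and pseudokinases, 4 were called lower and 0 higher in Ly6Chigh MCs, where 6.76% and 5.37% of all genes were, with a median log2FC of -0.62 over the 9. Pik3ip1, an inhibitor of the catalytic subunit, had a log2FC of -2.89, Trib2, a pseudokinase known to promote AKT activation and to repress FOXO, of -2.70, Phlpp1, a phosphatase of AKT, of -2.55 and Inpp4b, a lipid phosphatase, of -1.45. Inpp5d, the leukocyte lipid phosphatase SHIP1, had 0.25 (SE 0.13, adjusted p = 0.169, limma).

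In the AKT arm, Bad, a proapoptotic AKT substrate, was higher (1.29) and Pde3b, the phosphodiesterase by which insulin lowers cAMP, lower (-1.42) in Ly6Chigh MCs. In the mTOR part, 3 of 17 were called, where 12.1% of all genes were. Deptor (1.39) and Eif4ebp1 (1.09), which restrain mTOR and translation, were higher, and Ddit4 (-1.30), a stress-induced mTOR inhibitor, was lower. Among FOXO factors and known FOXO targets, 1 of 19 was called higher and 3 lower, where 5.37% and 6.76% of all genes were. Sesn2 was higher (1.11), and the genes called lower were S1pr1 (-4.35), the sphingosine receptor of lymphocyte egress, Ccnd2 (-3.59), a cyclin that FOXO represses, and Sesn3 (-2.12), a target that FOXO induces. With equal library sums, Bad (0.99), Eif4ebp1 (0.79) and Sesn2 (0.81) lay below the fold limit. S1pr1 ranged from 1.78 to 3.17 in Ly6Chigh and from 6.88 to 7.80 in Ly6Clow libraries. The FOXO targets did not move as 1 group, since Bcl2l11 (0.91), Cdkn1a (0.99) and Txnip (0.41) were higher in Ly6Chigh MCs at an adjusted p under 0.01 in limma without the fold limit, on the side opposite to Foxo1. With equal library sums their values were 0.61, 0.69 and 0.11, and Txnip had an adjusted p of 0.378 in limma. S1pr1, Ccnd2 and Pik3ip1 are known to be expressed in lymphocytes, whose marker genes were also higher in Ly6Clow libraries, and the part of lymphocyte RNA in these values was not tested.

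**Figure D4:**
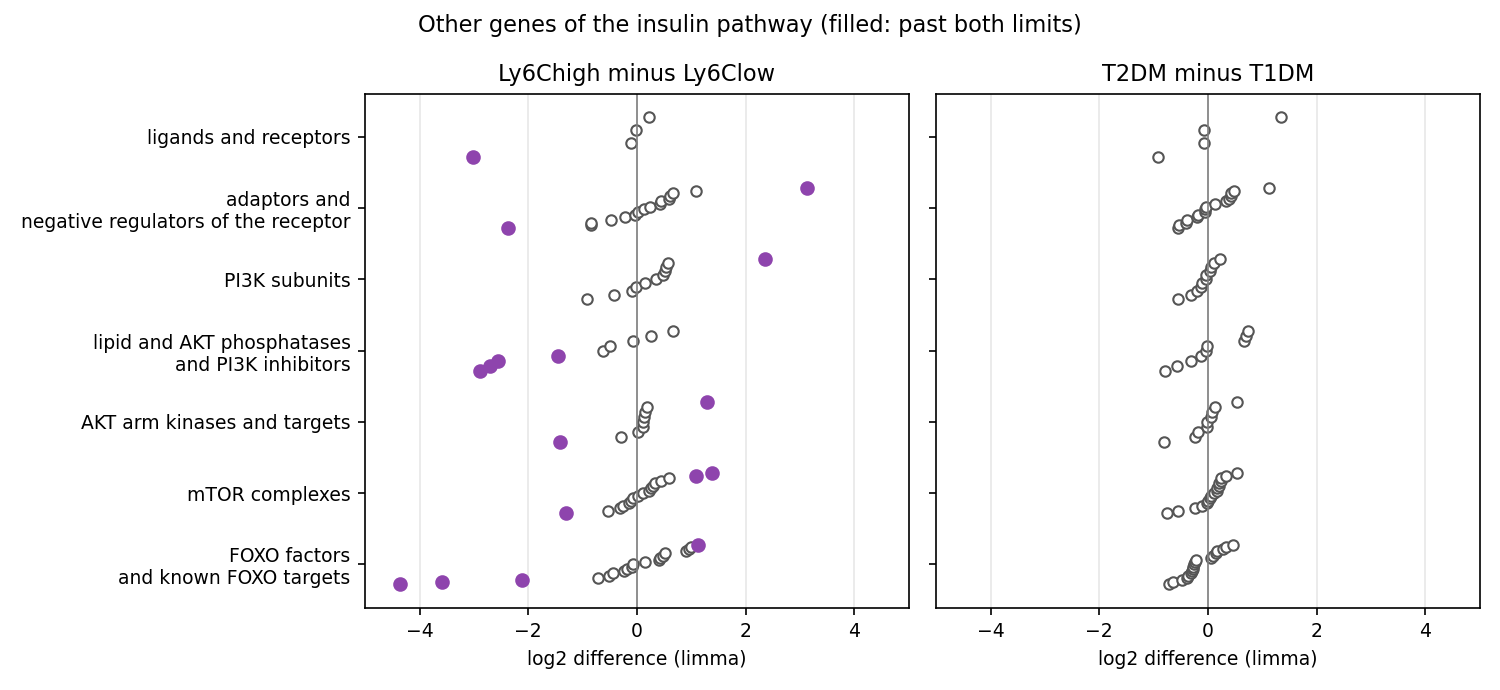
Log2 differences (x axis) of the 85 other pathway genes measured, by part of the pathway (y axis), from limma fits over the 8 libraries, with 1 point per gene and filled points past both limits. The left panel, Ly6Chigh minus Ly6Clow, holds 17 filled points, 4 of them in the part of phosphatases, PI3K inhibitors and pseudokinases and on the lower side, and the right panel, T2DM minus T1DM, holds 0.

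Between the models, by the size of the difference among genes with a mean log2 of 3 or more, leading genes of the list were Sh2b2, an adaptor of the insulin receptor (1.13, adjusted p = 0.34), Igf2r (-0.92, adjusted p = 0.414), Phlpp1 (-0.78, adjusted p = 0.55), Mlst8, a subunit of the mTOR complexes (-0.75, adjusted p = 0.449), and Trib1, a pseudokinase (0.74, adjusted p = 0.299), none past the limits in limma. Pik3ca, a catalytic partner of p85alpha, had -0.55 (adjusted p = 0.281, limma), the same sign as Pik3r1, while Pik3cg had -0.31 and Pik3cd 0.21. Of the FOXO targets, Ccng2 (-0.71), Sesn1 (-0.64) and Klf2 (-0.49) had the largest differences, with adjusted p-values of 0.144, 0.209 and 0.196 in limma. The smaller entries were Cblb (-0.53), a ubiquitin ligase, Gab3 (-0.56), Pik3ip1 (0.67), Bad (0.53), Pde3b (-0.24), Deptor (0.54), Eif4ebp2 (0.33) and Igfbp4 (-0.07).

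The search for similar genes covered 9211 genes whose mean log2 value reached 3. Those whose pattern over the 8 libraries was most like that of Pik3r1, the only 1 of the 8 genes called, were Rabgap1l, Cpne5 and Cblb. The measure was the root mean square difference of values centred on each gene's mean, at 0.11, 0.112 and 0.125. Cblb is also on the pathway list, and Cpne5 was at 2.50 to 2.99 in Ly6Chigh and 3.57 to 4.07 in Ly6Clow libraries. Rabgap1l ran from 6.71 to 7.34 in Ly6Chigh and from 7.67 to 8.32 in Ly6Clow libraries, and in both subsets its T1DM library was the highest and its T2DM library the lowest. Cblb had its lowest library of each subset in T2DM and its highest in T1DM mice as well. Both genes were picked for their likeness to Pik3r1 over these same 8 libraries. The shared order therefore follows from the search and is no separate evidence about Pik3r1.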

How the data were processed

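RNA-Seq of sorted blood MCs was analysed in 8 libraries, grouped by their labels. The authors ran Kallisto (version 0.45) and tximport (version 1.12.3) in R (version 3.6.1), with mm10 in the submitters' processing notes, and deposited normalized log2 values of 16486 genes. The labels state 40 M reads per library. How the log2 values were scaled or filtered is not given in the sources used here, and no counting error can be given.

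The deposited log2 values were used with no pseudocount. With limma 3.58.1 in R 4.3.3 (lmFit, then eBayes with its trend option), models fitted the subset in 4 CT libraries, subset plus mouse group in 8 libraries, and a mean for each of 6 groups to test the interaction. p-values were adjusted over all genes by Benjamini-Hochberg, and intervals are unadjusted 95% intervals. Comparisons with 1 library on a side within a subset have no test. The fits were tested on simulated data. Named genes were the 9 chosen ones, pathway genes that were called or were among the up to 3 largest T2DM minus T1DM differences of their part (mean log2 of 3 or more), and the 3 genes most like a called member. Genes named beyond this rule (Ptpn1, Pik3cb, Pik3r5, Pik3ap1, Inpp5d, Bcl2l11, Cdkn1a, Txnip and Lepr) were chosen after their values were seen, and some genes that the rule names are not reported here. The members and lists were chosen with earlier results of these data known. Alternatives were a low-value filter, adding 1 on the linear scale, quantile normalization, equal library sums, eBayes without the trend, an adjusted p limit of 0.05 without a fold limit, the replicate number as a block, and leaving out libraries. Python 3.11.15 (pandas 2.3.3, numpy 2.4.6, matplotlib 3.10.9) served for tables and plots.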

Additional observations from a re-analysis of the deposited data

How the results depend on the processing

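The reads behind each value are unknown, each library is 1 pool of mice, and sequencer cannot be told apart from diabetes. Shares of all genes are given in brackets. Of the 8 genes, 0 were called in CT MCs as deposited (3.52%). Pik3r1 was the 1 gene called there with the low-value filter (8.69%) and under quantile normalization (4.2%). Over 8 libraries 1 was called as deposited (12.1%). With Foxo1 at -1.18 and -1.29, 2 were called under quantile normalization (11.1%) and equal library sums (13.8%). With an adjusted p under 0.05 and no fold limit the numbers as deposited were 3 in CT MCs (20.5%) and 6 over 8 libraries (32.9%). Leaving out 1 library gave between 1 and 2 called genes over 8 libraries (9.14% to 10.5%). Foxo1 was called without CT Ly6Chigh replicate 1 (-1.09), CT Ly6Clow replicate 1 (-1.02) or CT Ly6Clow replicate 2 (-1.01). Without CT Ly6Clow replicate 1, Insr (1.05) was called and Pik3r1 (-0.98) was not. These calls lie at the fold limit. No member was called in the other comparisons under any alternative, and no member differed by more than 1 within a subset.

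Of 280 member values recomputed with all libraries of a fit or with a mouse group left out, 265 kept direction and side of the limits and 11 changed sign. In CT MCs Igf1r went from 0.09 to -0.04 under quantile normalization and -0.19 with equal library sums, and Irs2 from 0.14 to -0.15 with the latter. Over 8 libraries, equal sums gave -0.07 for Igf1r and -0.05 for Irs2. For T2DM against T1DM, quantile normalization gave 0.01 for Foxo1 and 0.02 for Foxo3, and equal sums 0.002 for Foxo1. Against CT, equal sums gave -0.01 for Insr and -0.01 for Foxo1 in T1DM and -0.01 for Foxo1 in T2DM. Of 320 values without 1 library, 16 changed sign. Ranges that crossed 0 were -0.19 to 0.37 for Igf1r in CT MCs. For T2DM against T1DM they were -0.32 to 0.10 for Irs2, -0.08 to 0.12 for Insr, -0.11 to 0.50 for Akt2, -0.09 to 0.09 for Foxo1 and -0.09 to 0.05 for Foxo3. For T1DM against CT they were -0.07 to 0.18 for Insr, -0.31 to 0.30 for Akt2 and -0.03 to 0.14 for Foxo1, and for T2DM against CT -0.05 to 0.20 for Insr and -0.05 to 0.14 for Foxo1. The cause was not tested.

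Over all genes, 581 were called in CT MCs, 1089 with the filter, and 0 without the trend, with the replicate block or without 1 CT library, where the lone library is assumed to vary like the other subset. The deviations of same-numbered CT libraries from their group means had a correlation of 0.00892 across genes. No deviation shared by number was thus seen. The block changed no member's call by the limits of the study. It gave 0 of 8 members and 0 of all genes in CT MCs, and 1 of 8 members and 11.1% of all genes over 8 libraries. The adjusted p of Pik3r1 in CT MCs ran from 0.00394 to 0.0527 in limma over the alternatives that kept all CT libraries, with the highest under the block. There Foxo1 had 0.0684 and Foxo3 0.0861 in limma, so that 0 of 8 passed 0.05, where 8.52% of all genes did. For T2DM against T1DM, 97 were called, 26 without the trend, 24 to 146 without 1 library and 0 in the 4 diabetic libraries alone. For T2DM against CT, 49 were called, 9 without the trend and 16 to 85 without 1 library. The subset effect called 886 higher and 1115 lower, and 503 and 1769 with equal sums.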
